A study of Mus musculus with 8 samples.

Results

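The gamma delta T cells of mouse spleen were gated from single-cell RNA counts, and 240 of the 42183 cells in the 4 libraries of total splenocytes were members. A cell was a member if it had over 100 detected genes, at most 10% mitochondrial transcripts, at least 2 transcripts of Cd3d, Cd3e and Cd3g together, at least 1 of Trdc, none of Cd4, Cd8a or Cd8b1, and at most 1 of the B cell genes Cd79a and Ms4a1. A transcript here is a unique molecular identifier (UMI), which counts each captured RNA molecule once. The members were thus chosen by the UMIs of the genes named in the rule, whose levels describe the choice and were not tested. The whole series held 83704 cells that passed the filter on detected genes and mitochondrial transcripts.

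Gamma delta T cells carry an antigen receptor built from a TCR γ chain and a TCR δ chain, in place of the α and β chains of the CD4 and CD8 lineages. Many leave the thymus with a function already set. Some make IL-17, with the transcription factor SOX13, and others make interferon-γ and killing molecules under T-bet and Eomes. In the spleen they are a small fraction of T cells, and the γ chain variable and constant segments a cell uses go along with these fates.

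The libraries came from C57BL/6J mice 2 months old. The cKO mice were Eif3e fl/fl Cγ1Cre Rosa26-YFP LSL and lose the translation initiation factor subunit eIF3e where Cre is active, whereas the controls were Cγ1Cre Rosa26-YFP LSL littermates with an intact Eif3e gene, so that Cre and the YFP reporter were shared by both groups. Cγ1Cre is expressed from the immunoglobulin γ1 constant region locus in activated B cells, so it was not directed at gamma delta T cells. There were 2 libraries of total live splenocytes in each genotype, numbered by batch, each pooling cells of several mice, and a further 4 libraries held sorted YFP+ cells. Values in the 4 libraries are given in the order control 1, control 2, cKO 1 and cKO 2 unless stated.

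The 4 libraries held 71894780 to 88513929 UMIs. The summed gamma delta T cells held 422478, 440819, 364710 and 402184 UMIs, with medians of 7144, 5539.5, 5806 and 7124.5 UMIs per cell. The gamma delta sums of libraries of the same genotype differed beyond the counting noise of UMIs. The chi-square per degree of freedom over genes was 5.23 in the controls and 4.95 in the cKO. That value includes the spread between single cells, which was not set apart from the spread between libraries. Any pair of total libraries shared 62 to 98 cell barcodes, at most 0.933% of the smaller library. The doublet caller marked 2.03% to 2.89% of barcodes, and 3 of the members were among them. The cKO 1 library stood apart in carrying Xist RNA, the transcript that silences an X chromosome in female cells, with 101 UMIs in its gamma delta T cells against 0 in each other library. All 4 libraries held the Y-linked transcript Ddx3y in these cells, at 137, 93, 82.3 and 114 CPM. CPM, the usual unit of scaled counts, is the UMIs of a gene relative to the summed UMIs of its class in that library.

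The γ chain constant genes are shown first because they were not part of the rule and carry the check of the label. Mouse has Tcrg-C1 (chr13:19214103-19217024, plus strand), Tcrg-C2 (chr13:19304649-19307551, minus strand) and Tcrg-C4 (chr13:19344558-19352756, plus strand), in GRCm38 coordinates of the GENCODE vM21 annotation. The first 110 coding bases of exon 1 are printed 5′ to 3′, at chr13:19214103-19214212, chr13:19307442-19307551 and chr13:19344558-19344667. Capitals mark the bases that differ from Tcrg-C1, of which there were 1 in Tcrg-C2 and 12 in Tcrg-C4.
Tcrg-C1: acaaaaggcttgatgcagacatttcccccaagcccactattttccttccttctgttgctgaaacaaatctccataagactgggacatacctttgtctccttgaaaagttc
Tcrg-C2: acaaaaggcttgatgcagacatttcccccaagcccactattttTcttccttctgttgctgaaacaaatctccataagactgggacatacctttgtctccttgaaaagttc
Tcrg-C4: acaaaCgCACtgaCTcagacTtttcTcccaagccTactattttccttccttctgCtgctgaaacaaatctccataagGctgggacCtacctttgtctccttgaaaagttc
Over the aligned transcripts Tcrg-C1 and Tcrg-C2 were 94.1% identical, and 91.4% identical over the last 300 bases, where the kit reads. Tcrg-C1 and Tcrg-C4 were 65.3% identical over the transcript. The split of UMIs between Tcrg-C1 and Tcrg-C2 is therefore uncertain, and the pair was set against Tcrg-C4.

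At least 1 UMI of a γ constant gene was found in 196 of the 240 members, or 81.7% (95% Wilson interval 76.3% to 86.1%). The other 44 held none. Tcrg-C4 was seen in 147 members (61.2%), Tcrg-C2 in 151 (62.9%) and Tcrg-C1 in 115 (47.9%). In B cells, which do not rearrange these genes and had medians of 4647 to 6281 UMIs per cell, the shares were 0.0909%, 0.0553% and 0.0711%. After each cell was thinned to 2000 UMIs the members' shares were 35.9%, 40.1% and 25.7%. NK cells held Tcrg-C4 in 5.49% of cells and Tcrg-C2 in 0.885%. Intervals of this kind cover counting error only.

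Transcripts of the αβ receptor were also present. Trac, the TCR α constant gene, was seen in 114 members (47.5%), against 95.9% of CD8 T cells, 97.8% of CD4 T cells, 8.32% of NK cells and 4.29% of B cells. At 2000 UMIs per cell the share in members was 27.4%, against 69.2% in CD8 T cells. Trbc1, a TCR β constant gene, was seen in 153 members (63.8%). By the γ constant genes the label holds for most members, since 196 of 240 held a UMI of them, and it is not shown for the other 44. Other T cells also held such transcripts. Trdc was seen in 1.45% to 2.87% of CD4 and 2.47% to 3.66% of CD8 T cells by library, when these were gated without regard to Trdc. Tcrg-C4 was seen in 6.10% to 7.07% of CD3-positive cells without Trdc, Cd4, Cd8a and Cd8b1. How many members were αβ T cells was not tested. The gate did not exclude cells with α and β chain RNA, and some of the genotype results below are also given without those cells.

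Some members lay at the edges of the rule. Trdc was at exactly 1 UMI in 41 members, CD3 at exactly 2 UMIs in 6, and a single B cell gene UMI was present in 45. Just outside stood 19 cells with 1 CD3 UMI, 46 cells with a single Cd4, Cd8a or Cd8b1 UMI, and 4 cells with 2 B cell gene UMIs. With any number of Cd4, Cd8a or Cd8b1 UMIs, 228 CD3-positive cells with Trdc were left out.

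The first comparison asked whether the cells were as frequent in cKO as in control spleens. Gamma delta T cells were 57 of 9566 cells in control 1, or 0.596% (95% Wilson interval 0.460% to 0.771%), and 76 of 11559 in control 2, or 0.657% (0.526% to 0.822%). They were 61 of 10476 in cKO 1, or 0.582% (0.454% to 0.747%), and 46 of 10582 in cKO 2, or 0.435% (0.326% to 0.579%). Both cKO libraries lay below both controls, and cKO 1 lay within the interval of either control. With every cell thinned to 2000 UMIs the shares were 0.413%, 0.576%, 0.445% and 0.352%, so that cKO 1 lay above control 1. The means were 0.627% ± 0.0436 (SD, n = 2) in control and 0.508% ± 0.104 (SD, n = 2) in cKO, with p = 0.333 in a two-sided exact permutation test, the smallest p that 2 against 2 allows. With the cells counted in 6 classes and fitted by edgeR's quasi-likelihood test, the log2 ratio of cKO to control was -0.30 ± 0.23 (SE), adjusted p = 0.322. Of CD3-positive cells the shares were 2.19%, 2.79%, 2.49% and 1.63%.

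**Figure D1:**
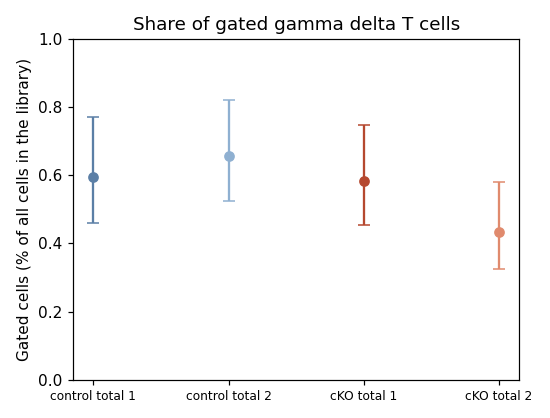
Gated gamma delta T cells as a percent of all cells in each of the 4 total libraries, with 95% Wilson intervals as bars. The cKO 2 library is lowest, at 0.435%, and the intervals of all 4 libraries overlap.

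The γ and δ chain genes were then set against CD8 T cells of the same libraries (3739 cells with Cd8a or Cd8b1 and without Trdc or Cd4), with the library as a block. Over all 10940 genes tested outside the rule, 672 (6.14%) were higher and 631 (5.77%) lower in gamma delta T cells by edgeR's quasi-likelihood test. Of 18 receptor genes on the fixed list, 11 passed the filter on low counts. Several of them passed it on their counts in gamma delta T cells alone, so no count over the list is read from this comparison, and single genes are given with their counts in both classes.

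Tcrg-C4 stood at 218, 247, 255 and 341 CPM in gamma delta T cells and at 0.894, 1.41, 2.53 and 5.70 CPM in CD8 T cells. The classes did not overlap, and the log2 difference was 6.30 ± 0.23 (SE). Tcrg-C2 stood at 199, 309, 354 and 234 CPM against a CD8 mean of 5.60 ± 1.84 (SD, n = 4), a log2 difference of 5.27 ± 0.17. Tcrg-C1 stood at 114, 188, 165 and 134 CPM against 1.76 ± 0.704, a log2 difference of 5.87 ± 0.25. Tcrg-C4 and Tcrg-C1 passed the filter on gamma delta counts alone, so their differences are a description and no p is read.

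Among variable segments, which contact the ligand, Trgv2 (chr13:19336573-19337167, minus strand) was the most often seen, in 121 members. Its level was 196, 188, 222 and 167 CPM against 3.22 to 3.95 CPM in CD8 T cells, and it had no UMI in NK cells. Tcrg-V1 (chr13:19339989-19340454, plus strand) was seen in 69 members (12, 27, 17 and 13 cells) and stood at 45, 118, 74.0 and 72.1 CPM. By position both lie nearest Tcrg-C4, but Trgv2 is on the minus strand, as Tcrg-C2 is. Only Tcrg-V1 shares the strand of Tcrg-C4.

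Tcrg-V4 (chr13:19184974-19185506, plus strand), a segment near Tcrg-C1, was seen in 30 members, with 8, 10, 8 and 4 cells. Tcrg-V6 was seen in 4 members, and Tcrg-V5 and Tcrg-V7 in 0 of 240, which allows up to 3 cells with a UMI and sets no limit on cells that use them. These last segments are the ones classically tied to gamma delta T cells of barrier tissues. Of the δ variable genes, Trdv5 stood at 18.9, 11.3, 11.0 and 7.46 CPM, but it overlaps Trdc on the other strand and its UMIs may belong to Trdc. A 3′ kit reaches a variable segment only on long fragments, so cells with a UMI of a segment need not be all that use it.

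Trac was lower in gamma delta than in CD8 T cells in all 4 libraries, at 163, 238, 110 and 261 CPM against 506, 792, 595 and 796. The log2 difference was -2.01 ± 0.10, adjusted p = 3.5e-14. Trbc2 was lower by a log2 difference of -0.72 ± 0.10, and Trbc1, at 535, 601, 661 and 634 CPM against a CD8 mean of 558, differed by -0.08 ± 0.07, adjusted p = 0.59.

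**Figure D2:**
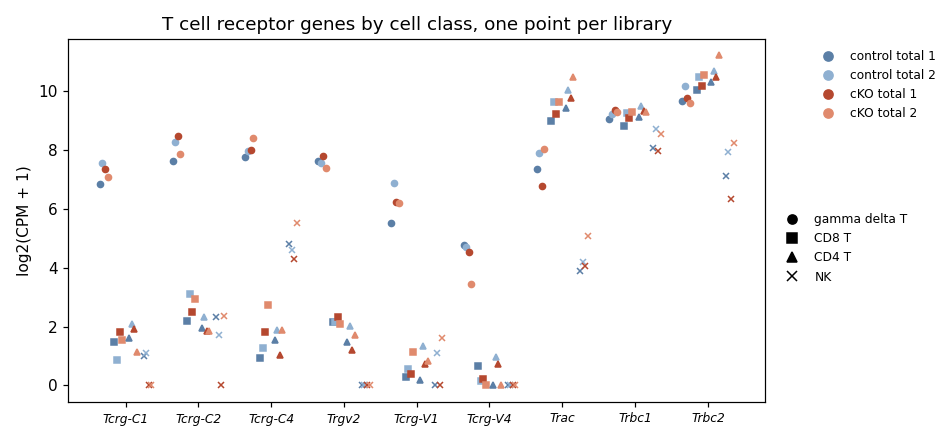
Levels of the γ chain constant and variable genes and of the α and β constant genes, as log2(CPM + 1), with 1 point per library and a marker shape for each class (gamma delta T, CD8 T, CD4 T and NK). Gamma delta T cells stand above the other classes for the γ genes in every library and below CD8 and CD4 T cells for Trac, while Trbc1 overlaps CD8 and CD4 T cells.

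Outside the receptor, the gamma delta T cells carried more RNA of NK-type receptors and effector factors than CD8 T cells. Ikzf2, which encodes the transcription factor Helios, had among the smallest p of any gene. It stood at 883, 612, 951 and 520 CPM in gamma delta T cells and at 122, 71.1, 144 and 72.1 CPM in CD8 T cells, a log2 difference of 2.67 ± 0.08, adjusted p = 4.1e-20. The ranges were far apart, and within each class replicate 1 was above replicate 2. Klrc1, which encodes the inhibitory receptor NKG2A, stood at 173, 225, 271 and 278 CPM against 9.96 to 20.4, a log2 difference of 3.75 ± 0.16. Its relative Klrc2 differed by 3.73 ± 0.19, from a CD8 mean of 10.8 CPM. Spry2, a feedback inhibitor of receptor tyrosine kinase signalling, stood at 121, 79.4, 93.2 and 52.2 CPM against 0.877 to 5.77, a log2 difference of 4.47 ± 0.31.

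The list of interferon-γ and killing genes had 10 of 20 tested genes higher than in CD8 T cells and 1, Ly6c2, lower, with a median log2 difference of 1.08. Tbx21, which encodes T-bet, stood at 85.2, 45.4, 65.8 and 67.1 CPM against 14.4 to 22.1 in CD8 T cells, a log2 difference of 1.64 ± 0.21, adjusted p = 8.9e-07. Tbx21 was seen in 26.7% of members, 9.87% of CD8 T cells, 64.8% of NK cells and 1.73% of B cells, and at 2000 UMIs per cell in 8.86%, 2.79%, 39.4% and 0.642%. The cytokine receptor subunits Il2rb (log2 difference 1.18 ± 0.11) and Il12rb2 (2.25 ± 0.19) were also higher. The chemokine Ccl5 stood at 3039, 3972, 2942 and 4180 CPM against 413 to 876, a log2 difference of 2.41 ± 0.12, adjusted p = 4.4e-05. The granule gene Nkg7 did not pass the test, at 525, 583, 672 and 1104 CPM against a CD8 mean of 557, a log2 difference of 0.15 ± 0.08.

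The IL-17 programme was present at low levels. Of its 18 genes 16 passed the filter on low counts, several of them on gamma delta counts alone, so no count over the list is read from this comparison. The summed list stood at 608, 928, 675 and 311 CPM against 82.5, 83.1, 122 and 168 in CD8 T cells. The sum was not particular to gamma delta T cells. It stood at 597, 596, 619 and 642 CPM in NK cells, and at 897, 984, 878 and 699 in B cells. In CD4 T cells it was 234, 256, 651 and 688 CPM. Cd163l1, a scavenger receptor (SCART1) of IL-17-producing gamma delta T cells, had 11, 99, 37 and 27 UMIs, or 26.0, 225, 101 and 67.1 CPM against 3.48 to 12.1 in CD8 T cells, a log2 difference of 3.60 ± 0.35, adjusted p = 9.6e-06. It was seen in 21 members (8.75%) and in 0.115% of B cells, and at 2000 UMIs per cell in 7.59% and 0.0401%. Sox13, a transcription factor of these cells, had 7, 10, 3 and 0 UMIs. Il23r, the receptor for IL-23, had 8, 21, 12 and 0 UMIs. The cKO 2 library had none of either. Il17a itself had 0, 6, 9 and 0 UMIs, so the cytokine was seen in 2 of the 4 libraries and in 3 members.

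Genes of naive and recirculating T cells were lower than in CD8 T cells, 10 of 12 tested, with 0 higher and a median log2 difference of -0.55. Lef1, a transcription factor of naive T cells, stood at 653, 590, 510 and 348 CPM against 1341, 943, 925 and 564, a log2 difference of -1.03 ± 0.07, adjusted p = 4.2e-12. The ranges overlapped, and every library showed the same direction. Ccr7, the lymph node homing receptor, stood at 56.8, 177, 57.6 and 62.2 CPM against 233 to 349, a log2 difference of -1.93 ± 0.22. Il7r, the IL-7 receptor, did not pass the test, with a log2 difference of 0.02 ± 0.08.

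Immediate early genes, which antigen receptor signals induce, were higher than in CD8 T cells for 9 of 14 tested genes and lower for 0, with a median of 0.85. Against CD4 T cells 1 of 14 was higher and 0 lower, with a median of -0.11. Against NK cells 2 of 12 were higher and 1 lower, with a median of -0.12. The higher level was thus seen against CD8 T cells and not against the other classes. Nr4a2 stood at 194, 218, 296 and 244 CPM against 41.9 to 70.9, a log2 difference of 1.82 ± 0.13. Zbtb16, which encodes PLZF, a factor of innate-like T cells, stood at 85.2, 34.0, 71.3 and 4.97 CPM against 1.30 to 2.85, and passed the filter on gamma delta counts alone. Its level in cKO 2 rested on 2 UMIs. Sox4 differed by 3.16 ± 0.21.

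A list of ribosomal protein genes, drawn up after their levels were seen, had 79 of 82 tested genes lower than in CD8 T cells, with a median of -0.66, and 3 lower than in CD4 T cells, with a median of -0.18, a share near the 3.56% of all genes that were lower there. Ribosomal protein genes took 18.8%, 25.2%, 19.5% and 24.7% of UMIs in gamma delta T cells and 26.3%, 33.2%, 28.2% and 33.1% in CD8 T cells. Of 13 subunits of eIF3, the complex that holds the deleted factor, Eif3e, Eif3f, Eif3h and Eif3k were lower than in CD8 T cells, and the median over the 13 was -0.28. Against CD4 T cells 0 of the 13 passed the test, with a median of -0.08. Against NK cells Eif3e, Eif3m and Eif3a were higher and 0 lower, with a median of 0.23. Of 18 tested interferon-stimulated genes 6 were lower than in CD8 T cells and 0 higher, among them Ifi27l2a at a log2 difference of -0.82 ± 0.11. None of 16 cell cycle genes passed the test against CD8 T cells.

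NK cell markers moved with these results. All 11 NK genes of the list were tested, but some, such as Ncr1, passed the filter on gamma delta counts, so no count over them is read. The summed NK list stood at 1129, 1041, 1418 and 6243 CPM against 88.0, 158, 135 and 984 in CD8 T cells. Ncr1, the defining NK receptor, stood at 109, 59.0, 60.3 and 286 CPM, on 46, 26, 22 and 115 UMIs. Ncr1 was seen in 28 members, 4, 6, 7 and 11 by library. Without those cells Tyrobp, Xcl1 and Txk were among the genes that no longer passed the test against CD8 T cells, while Klrc1, Tbx21 and Ikzf2 still did. Of 12 tested B cell genes 0 were higher and 5 lower, and of 9 myeloid genes 1 was higher and 3 lower. The summed B cell list in gamma delta T cells was 788 to 1023 CPM and the myeloid list 170 to 240 CPM.

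**Figure D3:**
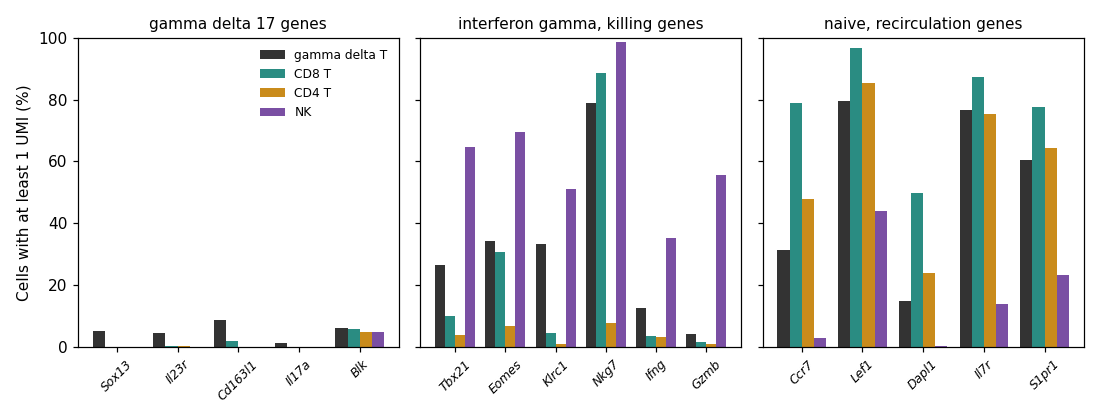
Percent of cells with at least 1 UMI of genes of the IL-17, interferon-γ and naive programmes, as bars over the pooled cells of the 4 libraries, for gamma delta T, CD8 T, CD4 T and NK cells and not thinned for depth. For Tbx21 the gamma delta bar, at 26.7%, lies between CD8 T cells (9.87%) and NK cells (64.8%), and Ccr7 was seen in 31.2% of gamma delta against 79.0% of CD8 T cells.

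The gamma delta T cells were next set against CD4 T cells (4358 cells with Cd4 and without Trdc, Cd8a or Cd8b1). Of 11062 genes tested, 880 (7.96%) differed, of which 486 (4.39%) were higher and 394 (3.56%) lower. Eomes stood at 123, 86.2, 151 and 261 CPM against 5.93 to 32.1 in CD4 T cells, a log2 difference of 3.14 ± 0.18, adjusted p = 3.2e-10. Against CD8 T cells, which stood at 34.7, 45.4, 129 and 208 CPM, the difference was 0.50 ± 0.30 and did not pass. Runx3, a factor that represses Cd4, stood at 237, 206, 252 and 221 CPM and was higher than in CD4 T cells by 1.74 ± 0.14. Cd160, an NK-type receptor, was higher by 3.51 ± 0.18, from 9.30 to 17.6 CPM in CD4 T cells to 134 to 184 CPM. Cd163l1 had 1, 0, 2 and 3 UMIs in CD4 T cells, against 11, 99, 37 and 27 in gamma delta T cells.

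Other genes were lower than in CD4 T cells. Cd5, an inhibitory coreceptor whose level follows TCR signal strength, stood at 123, 132, 129 and 92.0 CPM against 346 to 446, a log2 difference of -1.71 ± 0.14, adjusted p = 6.7e-08. Cd40lg, the ligand by which helper T cells license B cells, was lower than in CD4 T cells by -2.28 ± 0.19 and higher than in CD8 T cells by 2.04 ± 0.30, at 73.4, 125, 16.5 and 42.3 CPM. Tnfrsf4, which encodes OX40, had a mean of 169 CPM in CD4 T cells and 0, 1, 3 and 1 UMIs in gamma delta T cells. Sostdc1, a BMP and Wnt antagonist, had 1 UMI in all gamma delta T cells, while CD4 T cells stood at 19.4, 19.1, 325 and 663 CPM. The CD4 values were higher in the cKO libraries, so the class difference in this gene rested mostly on those.

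Against NK cells (565 cells with Ncr1 and without CD3), 7208 genes were tested, of which 788 (10.9%) were higher and 728 (10.1%) lower, and 29.9% had an unadjusted p under 0.05. Of T lineage genes, Il7r was higher by 2.48 ± 0.11 and Tcf7, a factor of naive and memory T cells, by 1.81 ± 0.12. Themis, which tunes TCR signals in developing T cells, stood at 608, 499, 535 and 288 CPM against 0 to 8.09. Bcl11b, a factor that holds T cell identity, stood at 350, 327, 324 and 336 CPM against 10.8 to 22.7. Both passed the filter on gamma delta counts alone and are given by their levels, with no test read.

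Of 20 tested killing genes 14 were lower than in NK cells and 3 higher, with a median of -1.43. Tbx21 was lower by -1.86 ± 0.16 and the pore-forming protein gene Prf1 by -3.34 ± 0.22. Klrb1c, which encodes NK1.1, stood at a mean of 172 CPM against 1380, a log2 difference of -2.90 ± 0.11, adjusted p = 1.1e-18. Tyrobp, the adaptor of NK activating receptors, was lower by -3.31 ± 0.11 and Zeb2, a factor of mature NK cells, by -4.00 ± 0.16. The gamma delta levels of Tbx21 thus lay between those of CD8 T and NK cells. Tcrg-C4 was higher by 3.16 ± 0.16 and had 18.6 to 45 CPM in NK cells. Of the ribosomal protein genes 78 of 81 were higher than in NK cells, with a median of 0.58.

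The members were then divided by the γ constant gene that led in UMIs, a split chosen after the data were seen because too few cells had Tcrg-C4 alone. Tcrg-C4 led in 58 cells (13, 15, 13 and 17 by library) and Tcrg-C1 with Tcrg-C2 in 115 (25, 40, 33 and 17). Tcrg-C4 thus led in 34.2%, 27.3%, 28.3% and 50.0% of cells with a leader. Both constant groups were seen together in 125 members, Tcrg-C4 alone in 22 and Tcrg-C1 or Tcrg-C2 alone in 49.

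With library as a block, 6 of 3686 genes (0.163%) differed between the 2 subsets by edgeR's quasi-likelihood test, 2 higher (0.0543%) and 4 lower (0.109%) in the Tcrg-C4-led cells, and 0 differed without the block or by DESeq2. At an unadjusted p under 0.05 there were 182 genes (4.94%). Each of the 6 passed the filter on low counts through 1 of the subsets alone, so they are described by their counts, and no p or fold of theirs is read. Cd163l1 had 2, 1, 0 and 5 UMIs in Tcrg-C4-led cells and 8, 95, 37 and 22 in the others. Most of its UMIs thus lay in cells led by Tcrg-C1 or Tcrg-C2. Sox4, a transcription factor of early gamma delta T cell development, had 3, 9, 2 and 4 UMIs against 30, 40, 18 and 49. Rgcc, a regulator of the cell cycle, had 6, 3, 0 and 0 UMIs against 27, 30, 16 and 23. Abi3bp, which encodes an extracellular matrix protein, had no UMI in Tcrg-C4-led cells against 11, 36, 13 and 0.

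In the other direction stood a pair of lectin-like receptor genes of the NK complex. Klra7, a Ly49 receptor, had 10, 15, 13 and 48 UMIs in Tcrg-C4-led cells and 9, 18, 2 and 9 in the others. Klri2 had 2, 9, 5 and 34 UMIs against 1, 1, 2 and 0. In Tcrg-C4-led cells the cKO 2 library held most of the UMIs of both genes. Without cKO 2 neither gene passed, nor did Sox4 and Rgcc. Klra7 also did not pass without cKO 1, nor Sox4 and Abi3bp without control 1. Abi3bp did not pass the filter on low counts without control 2, cKO 1 or cKO 2. Ly49 genes are near-identical copies of each other, so the count of a single member is uncertain.

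**Figure D4:**
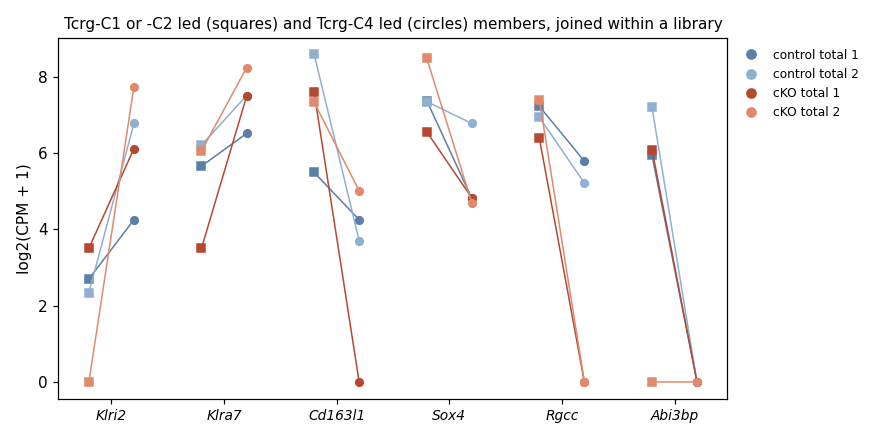
Levels as log2(CPM + 1) of the 6 genes called between members led by Tcrg-C1 or Tcrg-C2 (squares) and by Tcrg-C4 (circles), with the points of 1 library joined by a line. Cd163l1, Sox4 and Rgcc are lower and Klra7 and Klri2 higher in the Tcrg-C4 subset in each of the 4 libraries, and Abi3bp is at 0 in that subset. The genes were picked by their p in these libraries, which favours such a separation. Each passed the filter on low counts through 1 of the subsets alone.

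The last comparison asked whether gamma delta T cells differed between cKO and control spleens. Of 6108 genes tested, 0 (0.0%) passed by edgeR's quasi-likelihood test and 0 by DESeq2. At an unadjusted p under 0.05 there were 158 genes (2.59%) with edgeR and 53 with DESeq2. The groups of 2 did not overlap for 1616 genes (26.5%). The replicate numbers of the labels are batch numbers, and with the batch as a block 13 genes passed, 8 higher and 5 lower in cKO.

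Eif3e itself stood at 286, 352, 263 and 301 CPM, a log2 difference of -0.16 ± 0.37, adjusted p = 1. The groups overlapped, and Eif3e was seen in 51 of 57, 61 of 76, 44 of 61 and 37 of 46 cells. The difference turned to 0.0440 without control 2 and to 0.0611 without cells that held Trac. A 3′ count need not see a deleted exon.

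Of the 10 genes with the smallest p, Tspan9, a tetraspanin gene, stood at 2.37, 6.81, 41.1 and 102 CPM. It was seen in 1, 3, 10 and 16 cells, so the higher level in cKO was spread over cells. Klrb1f, a lectin-like receptor gene, stood at 16.6, 13.6, 68.5 and 74.6 CPM. Both genes passed the filter on low counts through the cKO libraries alone, so they are described by their levels, and no p or fold of theirs is read. In each, both cKO libraries lay above both controls, a separation that the choice by p favours.

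Haus4 (15.9 to 16.6 CPM in control and 52.1 to 59.7 in cKO), Rrm1 (9.07 to 14.2 and 35.6 to 69.6) and Car2 (36.3 to 45 and 93.2 to 154) were also separate. These genes too were picked by their p, and Haus4 and Rrm1 passed the filter on low counts through the cKO libraries alone. Lower in both cKO libraries stood Dapl1, a marker of naive T cells, at 68.6, 107, 24.7 and 14.9 CPM, a difference of -1.91 ± 0.43, adjusted p = 0.56. Tmem176b, which encodes a membrane ion channel, stood at 40.2, 61.2, 8.23 and 9.95 CPM. Il2ra stood at 92.3, 36.3, 16.5 and 12.4 CPM, and 24 of its 39 UMIs in control 1 came from 1 cell. Tmem176b and Il2ra passed the filter through the controls alone, so their levels are a description.

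Il7r, which supports T cell survival, stood at 1091, 1241, 664 and 706 CPM, with a log2 difference of -0.75 ± 0.38 that did not pass, and with the batch as a block it passed at adjusted p = 0.041. Dapl1 (adjusted p = 0.047), Cd40lg, Txnip and Hdac9 were the other genes lower with the block. All 11 tested genes of the naive list were lower in cKO, with a median of -0.52 against 0.00 over all genes and 0 passed. Without cells that held Ncr1 all 11 were still lower. Without cKO 2 the count was 10 of 11 with a median of -0.34, and without cKO 1 it was 11 of 11 with a median of -0.63. Without either control it was 9 of 11, with medians of -0.57 (without control 1) and -0.36 (without control 2). Without cells that held Trac it was 8 of 10 with a median of -0.26.

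Of 9 tested genes of the IL-17 list 8 were lower, with a median of -0.89. The list has 18 genes, and some of those tested, such as Tmem176b, passed the filter on low counts through the controls alone. The number tested also changed with the cells and libraries kept. The count and medians thus describe genes that the filter chose, and no genotype difference is read from them. Without cKO 2 the median was -0.25 and without control 2 it was -0.28, while without cells that held Ncr1 it was -0.52 and without cells that held Trac -0.51. Without control 1 it was -1.34 and without cKO 1 -1.84. The summed list was highest in control 2 and lowest in cKO 2. Of 9 tested NK genes 9 were higher, with a median of 0.93, and of 6 tested cell cycle genes 6 were higher, with a median of 1.38. The median over all genes was 0.00. The NK list has 11 genes and the cell cycle list 16. Their counts and medians thus also describe genes that the filter chose, and no genotype difference is read from them. Without cKO 2 those medians were 0.26 and 0.20, and without cells that held Trac they were 1.46 and 0.83, with 1 gene passed in each. Without cells that held Ncr1 they were 0.45, over the 4 NK genes then tested, and 0.52. Without cKO 1 they were 1.36, over 11 tested NK genes, and 2.69, over 13 tested cell cycle genes. Without control 1 they were 0.77 and 1.87 and without control 2 1.06 and 1.81, each time over 13 cell cycle genes. Without cKO 2 only 6 cell cycle genes were tested. The added cell cycle genes thus passed the filter through cKO 2, where they were high, and their medians are a description. Each of these lists had 0 genes passed over all members, and the cKO 2 library stood apart in the NK and cell cycle lists. Its summed NK list was 6243 CPM against 1129, 1041 and 1418 in control 1, control 2 and cKO 1, and its summed cell cycle list was 2812 CPM against 528, 483 and 609. Gzma, which encodes granzyme A, stood at 237, 81.7, 208 and 4155 CPM. Stmn1, a tubulin regulator high in dividing cells, had 16, 14, 27 and 155 UMIs, of which 41 came from 1 cell. With cKO 1 left out, so that cKO 2 stood alone against the controls, 68 genes passed, 54 of them higher. That fit takes its spread from the 2 controls and assumes that cKO 2 varies like them. With cKO 2 left out, 1 passed, which was Xist. The part that these cells of cKO 2 and the Xist of cKO 1 had in the genotype differences was not tested.

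**Figure D5:**
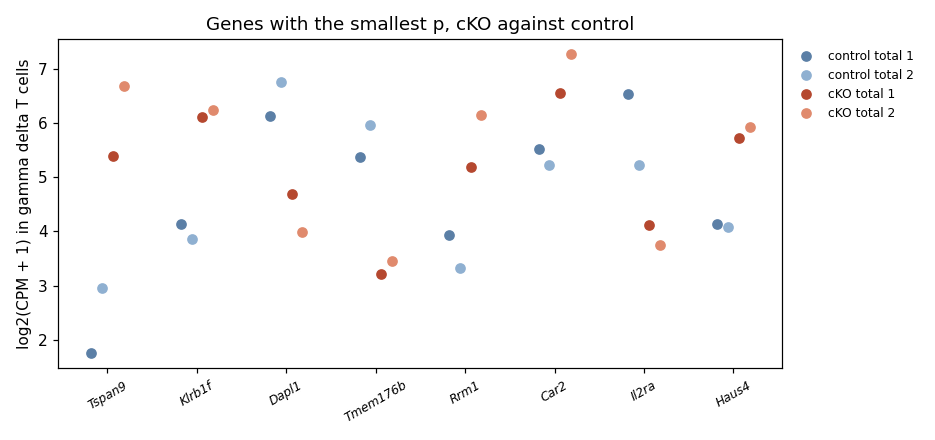
Levels as log2(CPM + 1) in gamma delta T cells of 8 of the 10 genes with the smallest p for cKO against control, with 1 point per library. Tspan9, Klrb1f, Rrm1, Car2 and Haus4 are above both controls in both cKO libraries, and Dapl1, Tmem176b and Il2ra are below, while 0 of them passed the test without the batch block. The genes were picked by their p, which favours such a separation.

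Whether the genotype difference was itself different from that of CD8 or CD4 T cells was tested by the class by genotype term. It passed for 14 of 10940 genes (0.128%) against CD8 T cells and for 274 of 11062 (2.48%) against CD4 T cells. Against CD8 T cells 4 of the 14 (0.0366% of genes tested) were above 0 and 10 (0.0914%) below, and 6.25% of genes had an unadjusted p under 0.05. Against CD4 T cells 102 (0.922%) were above 0 and 172 (1.55%) below. Ikzf2 differed against CD4 T cells by -2.25, with a cKO to control log2 ratio of -0.02 in gamma delta and 2.26 in CD4 T cells. Klrc1 differed by 2.40, with ratios of 0.47 and -1.64. For Ikzf2 the ratio was near 0 in gamma delta T cells, and for Klrc1 the ratios had opposite signs.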

How the data were processed

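Single-cell RNA was measured with a droplet kit that reads the 3′ ends of transcripts. The deposited values are UMI counts per gene and cell, made by the authors and not normalized. GRCm38 and mm10 are named in the submitters' processing notes, and the sources used here name no aligner or counter. For their own work the authors filtered cells and integrated the libraries a step not used here.

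The members and gene lists were chosen with earlier results of these data known. The ribosomal list and the split by leading constant gene were chosen after seeing the data. Cells were gated as described above, and UMIs were summed per class and library. The genes of the rule, and Ncr1 against NK cells, were left out of tests. Sums were fitted with edgeR 4.0.16 (TMM, its expression filter, quasi-likelihood test, prior count 2) in R 4.3.3, and p-values were adjusted by Benjamini-Hochberg over all genes tested, with a threshold of 0.05. Class comparisons had the library as a block, and the genotype comparison had none. SE is the log2 difference divided by the square root of F. Alternatives were DESeq2 1.42.0, no filter, the block, stricter gates, each library left out, and cells with Ncr1, with Trac or marked as doublets left out. The genotype fit and the fit against CD8 T cells were also run on simulated sums with known changes, and the other steps were not. Doublets were marked with scanpy 1.11.5.

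The replicate numbers are batch numbers in the labels, so they pair the libraries. Deviations of same-numbered gamma delta sums from their group means correlated at r = 0.349 over 6108 genes.

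Named genes were, per comparison, chosen among the 12 with the smallest p in each direction (the 10 smallest where 0 passed) and members of the lists; some of these are not reported here. Each library pools mice, so the p-values of the genotype fit measure the spread between 2 pools per genotype. Those of fits with the library as a block measure how the difference between the summed classes varied between libraries. The test of the share takes its spread from the cell classes together.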

Additional observations from a re-analysis of the deposited data

Results flagged for a closer look

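The results here were those in which the genotype difference of gamma delta T cells differed from that of another T cell class, by the class by genotype term in edgeR's quasi-likelihood test with the library as a block. There were 14 such genes against CD8 T cells and 274 against CD4 T cells, and DESeq2 found 3 and 81.

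Against CD8 T cells the log2 difference (gamma delta minus CD8, each cKO over control) was above 0 for Cd7 by 1.24, Fcer1g by 1.32, Hbb-bs by 4.82 and Hbb-bt by 5.59. The last 2 are haemoglobin genes, whose ratio was -4.57 and -4.34 in CD8 T cells. The summed erythroid list in CD8 T cells held 5920 UMIs in control 2 and 77 to 104 in the other libraries, so these ratios rest on control 2. It was below 0 for Penk (-10.00), Nrp1 (-5.06), Maf (-4.14), Nav2 (-3.31), Gm20275 (-2.16), Izumo1r (-2.13), Ccr2 (-2.07), Nt5e (-1.85), Cxcr3 (-1.5) and Ctla4 (-1.34). For Maf and Ccr2 the ratio was 3.07 and 2.24 in CD8 T cells against -0.76 and 0.18 in gamma delta T cells. Penk had 26 UMIs in the gamma delta T cells of control 1 and 0 in each other library. Izumo1r, Nt5e and Ctla4 had ratios of -1.69, -1.55 and -1.31 in gamma delta T cells and 0.39, 0.27 and 0.02 in CD8 T cells, and the difference within gamma delta T cells did not pass.

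Against CD4 T cells, among the genes with the smallest p, the difference was above 0 for the cytotoxic and NK-type genes Gzma (3.15), Klrc1 (2.40), Klrk1 (1.75) and Nkg7 (1.5), and for Sox5 (2.89), Mob3b (2.67), Cers6 (2.49), Atp8b4 (1.41), Ugcg (1.31), Bach2 (1.25) and Txk (1.21). The Gzma level in gamma delta T cells came mostly from cKO 2. Apart from Gzma, at 0.69, the cKO to control ratio of these genes was below 0 in CD4 T cells. It lay there between -1.96 (Sox5) and -0.74 (Nkg7). In gamma delta T cells the ratio was between -0.52 (Atp8b4) and 3.77 (Gzma), with 0.34 for Klrk1, 0.47 for Klrc1 and 0.68 for Nkg7. The difference between the classes was below 0 for Nav2 (-5.08), Itgae (-4.57), Plcb4 (-3.85), Stx11 (-3.47), Nt5e (-3.16), Ptpn13 (-3.05), Izumo1r (-2.78), Smco4 (-2.77), Bhlhe40 (-2.48), Eea1 (-2.28), Ikzf2 (-2.25) and Fos (-1.59). In CD4 T cells the ratio of these 12 genes was between 0.81 (Fos) and 4.11 (Nav2), while in gamma delta T cells it was between -1.69 (Izumo1r) and -0.02 (Ikzf2). Genes on both sides were picked by the sign and p of the difference between the classes. Which class had the higher ratio thus follows from the choice.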

How the results depend on the processing

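The share of gamma delta T cells kept its direction under all 11 alternatives, of which 10 were tested and stayed short of the threshold, from -0.53 to -0.11 when a library was left out and at -0.31 with the replicate block. The genotype comparison gave 0 genes, but 13 with the replicate block, 33 with no filter on low counts, 1 to 68 without 1 library, and 2 without cells holding Ncr1 or without cells holding Trac. The block was run for these 2 results, and left the call on the share as it was. Eif3e ranged from -0.359 to 0.0440 when a library was left out, above 0 without control 2, and was at 0.0611 without Trac cells. Leaving out a library gave 875 to 1198 genes against CD8, 430 to 884 against CD4 and 1089 to 1487 against NK cells, and no library block gave 373, 362 and 634. DESeq2 gave 830 against NK cells. Hbb-bt against CD8 T cells ranged from -3.78 to 0.398 (without control 2) when a library was left out, and Gzmb against CD4 T cells turned to -0.0235 without Ncr1 cells. The class by genotype term gave 3 (DESeq2), 41 (no filter) and 21 to 79 (1 library left out) genes against CD8 T cells, and 81 (DESeq2) and 148 to 453 against CD4 T cells, where Klra4 ranged from -2.45 (without cKO 2) to 5.02. The split by constant gene gave 0 with DESeq2 or no block, 10 with no filter and 3 to 18 without 1 library. The cause of these changes was not tested. For single genes and alternatives, 1597 of 1783 values against CD8, 1203 of 1322 against CD4 and 1462 of 1574 against NK cells kept direction and side of the threshold. The planned split of cells with only Tcrg-C4 from those with only Tcrg-C1 or Tcrg-C2, and its stricter form, were not run, since under 10 cells a side remained in some libraries. The sums of 46 to 76 cells limit the genotype comparison to genes with many UMIs.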

Other observations

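The same rule applied to the YFP+ libraries found 6 of 9276 and 3 of 11652 cells in control and 8 of 10133 and 0 of 10460 in cKO, 17 in all. The count of 0 allows a share of up to 0.0287% (3 cells), with a 95% Wilson upper limit of 0.0367%. These cells entered no comparison.

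Within the members, sets of genes put together after their values were seen gave a count of how the programmes fell over single cells. Any of Sox13, Il23r, Cd163l1, 5830411N06Rik, Il17a or Il17f was seen in 33 of 240 cells (13.8%), with 6, 12, 8 and 7 by library in the order control 1, control 2, cKO 1 and cKO 2. Tbx21 or Eomes was seen in 117 (48.8%), with 28, 27, 30 and 32. Both sets were seen together in 10 cells. Ccr7, a receptor of recirculating cells, was seen in 75 (31.2%), with 14, 38, 13 and 10. Of the Tcrg-C4-led cells 6 of 58 had a gene of the first set, and of the cells led by Tcrg-C1 or Tcrg-C2 23 of 115 did. Depth sets all of these shares, and no test was made of them.

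Trdc is not confined to T cells: 141 of the 565 NK cells by gate held a Trdc UMI. Among CD3-positive cells without Cd4, Cd8a and Cd8b1, 1503 held no Trdc UMI and were not members.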
